A study of Homo sapiens with 16 samples.

Results

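The comparison described here is that of cardiomyocytes derived from human pluripotent stem cells (hPSC-CMs) kept from Day 16 to Day 30 in RPMI/B27 with glucose lowered to 5 mM (named RPMI_glcM/B27) with cells kept in standard RPMI/B27, which has the higher glucose of the RPMI formulation. It rests on 8 of the 16 libraries of the series, 4 for each medium, and on the 15845 genes, of 43388 in the table, whose mean over those 8 libraries was at least 1 TPM (reads per gene divided by gene length and scaled to a common total per library). All cells were WTC11, a widely used human induced pluripotent stem cell line, and were differentiated from banked cardiac progenitors by stepwise modulation of Wnt signalling. All media carried the B27 supplement. The other 8 libraries, 4 of Day 16 cells in RPMI/B27 and 4 of Day 30 cells in HPLM/B27 (human plasma-like medium), entered the fit for its estimate of the spread and are given below as reference levels. The replicates were separate wells of 1 cell line, and the paper places its RNA-seq in 1 differentiation. So p-values here measure the spread between wells, not that between differentiations or cell lines. The expression values below are TPM divided by a scaling factor per library (scaled TPM), and each test is limma's moderated test on log2(scaled TPM + 1), with p-values adjusted over all 15845 genes by the Benjamini-Hochberg method. Fold changes on that scale understate the change of genes near 0. A value written with ± is the mean and SD of 4 libraries unless SE is named, and a list of 4 values gives replicates 1 to 4.

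Glucose enters cardiomyocytes through the transporters GLUT1 and GLUT4, is trapped by hexokinase and is then burned through glycolysis and the citrate cycle, stored as glycogen, or diverted into the hexosamine and pentose phosphate routes. Cells read the level of glucose 6-phosphate through the paired transcription factors MondoA and MLX, which bind carbohydrate response elements in promoters. Their best known target, TXNIP, and its relative ARRDC4 are arrestin-like proteins that restrain glucose uptake, so that the sensor acts as a brake. The heart's developmental shift from glucose towards fatty acids, and from fetal to adult contractile isoforms, is the background against which glucose in hPSC-CM media has been questioned.

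The RPMI/B27 libraries held 9655892 to 16183655 reads assigned to genes, and the RPMI_glcM/B27 libraries 7744768 to 10048729. Read numbers given below are not corrected for this depth. The scaling factors of these 8 libraries ran from 0.723 to 1.17. The mitochondrial ribosomal RNA gene RNR2 took 41.0 to 48.1% of the deposited TPM and RN7SK, a nuclear RNA that holds back transcription elongation, took 12.6 to 13.8%. Of these RNAs the second mitochondrial ribosomal one, RNR1, varied most, with a deposited TPM of 1545, 619, 14387 and 29276 in the RPMI/B27 libraries and of 225, 355, 4872 and 6806 in the RPMI_glcM/B27 libraries, so that replicates 3 and 4 were the high ones in both groups. One library stood apart in protein-coding genes. In RPMI/B27 replicate 3 the summed level of 6 smooth muscle markers was 1263, against 258 to 325 in the other RPMI/B27 libraries and 296 to 323 with lowered glucose. Its NPPB level, the gene of the brain natriuretic peptide released by stretched myocytes, was 878, against 135 to 196 in the other 3. The sarcomeric actin genes were high there too, with ACTC1 at 6087 against 1610.0 to 2044 and ACTA1 at 593 against 86.5 to 95.2.

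The defining cardiomyocyte transcripts were abundant in every library. The summed level of 10 cardiomyocyte markers was 14426, 12692, 24524 and 20114 in RPMI/B27 and 16558, 17875, 19359 and 19598 in RPMI_glcM/B27, so the groups overlapped. The 3 of these markers that passed the test were TNNI3 and RYR2, which were higher with lowered glucose, and ACTN2, which was lower. That is 30% of the 10, against 12.3% over all genes. Markers of pluripotent cells summed to 10.1 to 18.0 over the 8 libraries, with POU5F1 at 0. Endothelial markers summed to 17.8 to 27.9.

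The largest changes among genes with at least 10 reads were the falls of TXNIP and ARRDC4, and their promoters are shown because glucose acts on such genes through promoter elements. Each sequence below is the 250 bases before the RefSeq transcription start (GRCh38.p14), written 5′ to 3′ on the gene's strand. For TXNIP (gene at chromosome 1, 145992435 to 145996579), at chr1:145996580-145996829 on the minus strand, the capitals mark a pair of CACGAG sites 5 bases apart. For ARRDC4 (gene at chromosome 15, 97960703 to 97973833), at chr15:97960453-97960702 on the plus strand, they mark an E-box, CACGTG.
TXNIP: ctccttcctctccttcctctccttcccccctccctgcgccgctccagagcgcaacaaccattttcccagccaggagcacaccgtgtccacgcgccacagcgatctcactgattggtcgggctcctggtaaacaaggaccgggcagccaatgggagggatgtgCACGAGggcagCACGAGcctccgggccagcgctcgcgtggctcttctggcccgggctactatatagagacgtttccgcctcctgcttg
ARRDC4: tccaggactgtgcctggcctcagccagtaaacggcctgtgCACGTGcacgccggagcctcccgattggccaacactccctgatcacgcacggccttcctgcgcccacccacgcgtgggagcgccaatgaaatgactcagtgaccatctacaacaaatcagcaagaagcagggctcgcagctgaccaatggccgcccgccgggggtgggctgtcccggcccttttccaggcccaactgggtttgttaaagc
The pair of sites in TXNIP lies 88 to 72 bases before the start, and the E-box in ARRDC4 210 to 205 bases before it.

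Windows of 300 bases, 250 before and 50 after the start, were searched on both strands in 35116 RefSeq promoters. An E-box was present in 7.26% of all windows, in 9.36% of the 10679 windows of tested genes, in 10.9% of those of the higher genes and in 6.92% of those of the lower genes. A looser carbohydrate-response-like pair, CANGNG and CNCNTG separated by 5 bases, was present in 0.564% of all windows, in 0.687% for higher and in 0.432% for lower genes. TXNIP held neither of these patterns in its window. The CACGAG pair was looked for after its promoter had been read, and occurred in 2 of the 35116 windows, the other being that of KCTD5, an adaptor of a ubiquitin ligase (log2 fold change 0.22 ± 0.11 SE, adjusted p = 0.239). Among the 24 genes with the largest changes, C11orf21 alone held the looser pair. These matches are a description of letters, with no test.

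TXNIP measured 138, 207, 72.8 and 132 in the 4 RPMI/B27 libraries and 5.09, 5.33, 4.70 and 2.78 in the 4 RPMI_glcM/B27 libraries. Every library with lowered glucose lay far below every library without, and the group means differed 30.7-fold (log2 fold change -4.60 ± 0.33 SE, adjusted p = 3.34e-06). The counts behind these values were 1381 to 4395 reads per library in RPMI/B27 and 30 to 72 in RPMI_glcM/B27. At Day 16, before the media diverged, TXNIP ranged from 72.9 to 137, and in HPLM/B27, whose glucose matches that of RPMI_glcM/B27, from 2.69 to 6.89.

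ARRDC4 followed the same course, at 24.1, 28.0, 16.2 and 21.02 in RPMI/B27 and 1.40, 1.96, 2.60 and 1.30 in RPMI_glcM/B27. The means differed 12.3-fold with no overlap (log2 fold change -3.05 ± 0.20 SE, adjusted p = 2.24e-06), and the HPLM/B27 libraries held 2.27 to 4.16. ARRDC3, another arrestin of the family that acts on adrenergic receptors, fell from 23.1 ± 3.18 to 13.4 ± 1.17 (SD, n = 4; log2 fold change -0.73 ± 0.13 SE, adjusted p = 0.00241). KLF10, a Krüppel-like repressor induced by glucose in other tissues, fell from 7.93, 9.61, 8.56 and 8.23 to 3.67, 3.85, 5.72 and 3.08 (log2 fold change -0.94 ± 0.16 SE, adjusted p = 0.00163), with Day 16 cells also low at 3.05 to 4.95. The genes of the sensor itself did not pass the test. MLXIP, which encodes MondoA, was at 7.93 ± 1.24 in RPMI/B27 and 7.27 ± 1.26 in RPMI_glcM/B27 (adjusted p = 0.666), and its partner MLX was at 11.5 ± 0.667 and 14.2 ± 1.43 (adjusted p = 0.158). The liver paralogue MLXIPL had at most 3 reads in any of the 8 libraries and was not tested. PFKFB2 was the member of the glucose-sensing list that rose. It encodes the cardiac enzyme that makes fructose 2,6-bisphosphate, the main activator of phosphofructokinase, and measured 2.38, 2.57, 1.73 and 2.93 against 6.79, 7.40, 7.31 and 8.90 (log2 fold change 1.35 ± 0.14 SE, adjusted p = 4.28e-05). Of the 10 tested genes on that list, 4 were lower, 1 was higher and 5 did not pass, or 50% called against 12.3% over all genes.

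**Figure D1:**
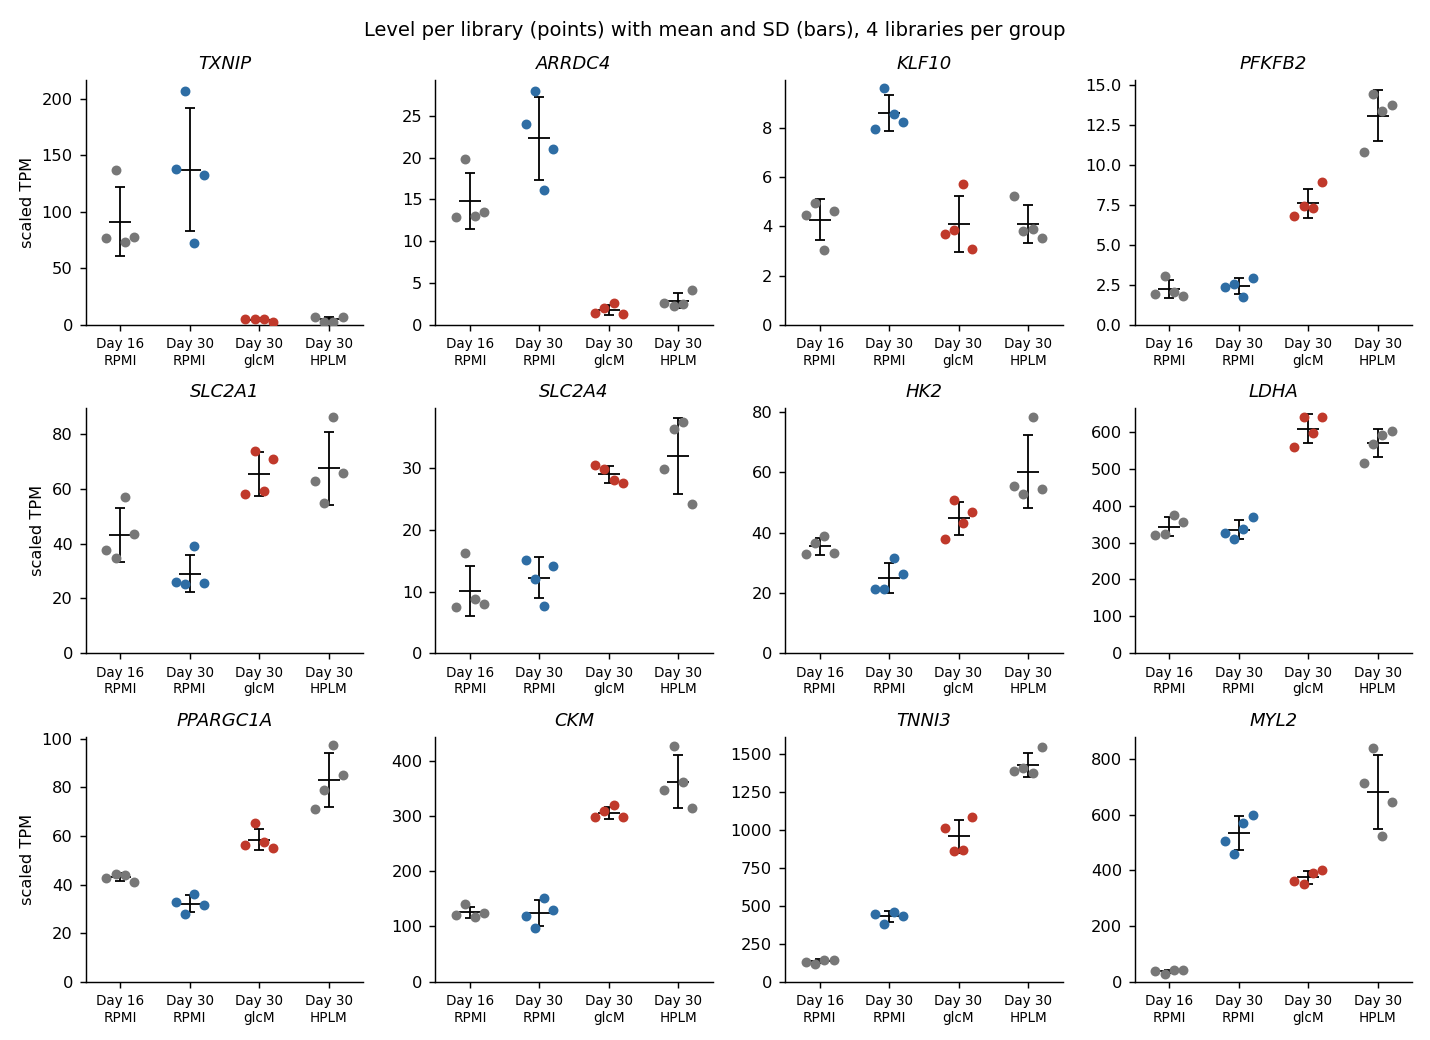
Scaled TPM of 12 genes (vertical axes, linear and from 0) in every library of the 4 groups; points are libraries, bars the mean and SD of 4. TXNIP and ARRDC4 are near 0 in both Day 30 groups with lowered glucose, while SLC2A4, LDHA and CKM lie higher in both of them than in either RPMI/B27 group, and MYL2 is lower in RPMI_glcM/B27 than in RPMI/B27.

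Over all genes, 996 were higher and 955 lower with lowered glucose, which is 12.3% of those tested (6.29% higher and 6.03% lower). These shares are the background for the counts of genes called in each list. The median change over all genes was -0.01 on the log2 scale. The 4 libraries of one group lay wholly above the 4 of the other for 8.58% of genes in the higher and 8.81% in the lower direction. Most changes were modest: the median size of a called change was 0.49, and 55 higher and 91 lower genes passed a 2-fold change. Without the scaling factors, on TPM as deposited, 221 genes were higher and 138 lower, a split of 61.6% higher against 51.1% with scaling, and 345 of these 359 were among the 1951. Counts per list on TPM as deposited are to be read against these 221 and 138 of 15845 genes. With only the 8 libraries in the fit, 586 were higher and 548 lower. Without RPMI/B27 replicate 3 the counts were 1114 and 1037, and 1600 of the genes called were among the 1951. Of the 155 named genes that passed, 13 lost the call without that library, at adjusted p from 0.0501 to 0.0975: ALDOC, RENBP, GATM, SLC38A2, TXN2, SOD1, MYL2, PDLIM5, RYR2, CORIN, HEY2, IER2 and TUBB3. More generally, 40 of the 155 lost it without at least 1 single library, all with an adjusted p of 0.0164 or more, while those with 0.0162 or less kept it without any 1 library.

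**Figure D2:**
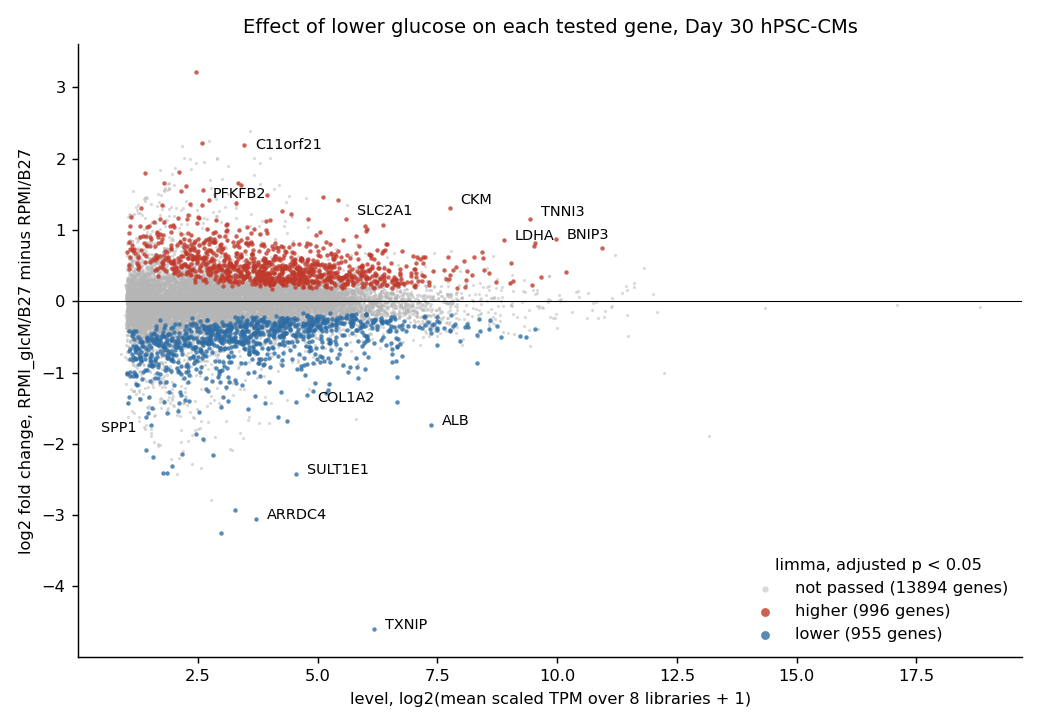
Log2 fold change of each of the 15845 tested genes (vertical axis, RPMI_glcM/B27 minus RPMI/B27) against its level, log2(mean scaled TPM over the 8 libraries + 1); red genes were higher and blue genes lower at adjusted p under 0.05. TXNIP at -4.60 and ARRDC4 at -3.05 lie far below the body of changed genes, and at high levels CKM, TNNI3, LDHA and BNIP3 stand out on the higher side.

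Genes with under 10 reads per library on average made up 1787 of those tested and 53 of those called, small RNA genes at the extremes of the plot among them.

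The rule of naming took the 12 genes with the largest rise and the 12 with the largest fall among called genes with at least 10 reads on average and no overlap between the groups. Of those that rose 11 are given, and most were of low abundance. C11orf21, an uncharacterised gene, went from 3.30, 3.95, 0.862 and 4.87 to 15.9, 19.4, 17.0 and 15.3 (log2 fold change 2.19 ± 0.34 SE, adjusted p = 0.00107). All 4 lowered-glucose libraries lay above the 4 others, as the rule of choice requires. PTGER3, a receptor for prostaglandin E2, rose from 4.00 ± 1.45 to 14.3 ± 1.39, UAP1L1, a relative of the enzyme that makes UDP-N-acetylglucosamine, from 1.34 ± 0.244 to 6.17 ± 0.812, and PARM1, a mucin-like membrane protein of myocytes, from 17.9 ± 4.70 to 49.6 ± 2.78. The remaining 7 were NEFL (a neurofilament), EPHA3 (an ephrin receptor), NAAA (an amidase of lipid mediators), HHATL (a relative of the Hedgehog acyltransferase), KIF1A (a kinesin), the uncharacterised LOC105369856 and MIR1244-3, with log2 fold changes from 1.37 to 1.63. LOC105369856 had at most 28 reads in any of the 8 libraries. NEFL and KIF1A are abundant in neurons. The neural marker TUBB3 was lower (log2 fold change -0.99 ± 0.29 SE, adjusted p = 0.0370), a call lost without RPMI/B27 replicate 3 (adjusted p = 0.0890) and kept in 7 of 18 alternatives. MIR1244-3 is one of several near-identical genomic copies, so its reads may be split among them.

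Among the 12 genes with the largest fall, TXNIP and ARRDC4 were followed by SULT1E1, the oestrogen sulfotransferase, at 40.8, 50.5, 30.8 and 31.3 in RPMI/B27 and 7.33, 5.15, 5.85 and 6.69 in RPMI_glcM/B27 (log2 fold change -2.42 ± 0.17 SE, adjusted p = 2.99e-06). TNFRSF11B (osteoprotegerin) and SPP1 (osteopontin), secreted proteins best known from bone, fell by 1.86 and 1.73 on the log2 scale. SPP1 rested on 20 to 55 reads per library in RPMI/B27 and 1 to 3 in RPMI_glcM/B27. TNFRSF11B was highest in RPMI/B27 replicate 3, at 16.1 against 4.25 to 5.65 in the other 3, and STAT4, a transducer of cytokine signals, was likewise 14.3 there against 4.90 to 6.05. The other 3 libraries lay above every RPMI_glcM/B27 library for both genes (0.656 to 1.84 and 1.32 to 2.41), as the rule of choice requires. ANXA1, an annexin that limits inflammation, fell from 26.4 ± 10.4 to 7.56 ± 1.42 (adjusted p = 0.00137), and CCKAR, a cholecystokinin receptor, from 4.38 ± 1.14 to 0.837 ± 0.484 (adjusted p = 0.000807). The other 4, ALB, APOA2, FGA and FGB, are plasma proteins made by liver and are taken up below with the hepatic markers.

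Of 8 sugar transporter genes 2 were higher in RPMI_glcM/B27 (25%, against 6.29% over all genes) and 6 did not pass. SLC2A1, the gene of GLUT1, measured 26.0, 25.4, 39.3 and 25.7 in RPMI/B27 and 57.9, 73.7, 59.2 and 70.8 in RPMI_glcM/B27 (log2 fold change 1.16 ± 0.17 SE, adjusted p = 0.000807). SLC2A4, the gene of the insulin-responsive GLUT4, measured 15.2, 12.0, 7.67 and 14.2 against 30.6, 29.9, 28.2 and 27.6 (log2 fold change 1.22 ± 0.22 SE, adjusted p = 0.00292), a ratio of means of 2.37. The groups did not overlap for either gene. GLUT3, encoded by SLC2A3, was at 75.5 ± 6.34 and 83.3 ± 7.05 and did not pass (adjusted p = 0.459). Among the carriers of lactate and pyruvate, SLC16A3, the lactate exporter MCT4, went from 6.97 ± 1.69 to 10.1 ± 0.408 (adjusted p = 0.0383). Its chaperone BSG went from 99.3 ± 6.19 to 119 ± 6.58 (adjusted p = 0.0110), whereas EMB, the chaperone of MCT2, fell from 12.2, 13.0, 13.4 and 11.8 to 5.28, 4.41, 4.94 and 5.85 (log2 fold change -1.15 ± 0.10 SE, adjusted p = 1.48e-05). Of the 13 tested transport genes, 4 were higher, 1 lower and 8 did not pass, or 38.5% called against 12.3% over all genes.

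Most glycolysis genes were higher with lowered glucose. Of its 22 tested genes 14 were higher and none was lower, against 6.29% and 6.03% over all genes, and the estimated log2 fold change was above 0 for all 22, with a median of 0.53 against -0.01 over all genes. On TPM as deposited 7 of the 22 were higher, and without RPMI/B27 replicate 3 the number was 16. Over all 15845 genes the numbers higher in those fits were 221 and 1114. At the first step, HK2, the inducible hexokinase of muscle, measured 21.3, 21.2, 31.5 and 26.3 against 38.0, 51.0, 43.3 and 47.0 (log2 fold change 0.82 ± 0.14 SE, adjusted p = 0.00200), while the constitutive HK1 was at 100.3, 90.4, 141 and 97.4 against 124, 122, 119 and 111 (adjusted p = 0.337), with overlap. The overlap lay in RPMI/B27 replicate 3, without which HK1 passed (0.31, adjusted p = 0.00760). HK1 passed in 2 of 19 alternatives, and on TPM as deposited its adjusted p by limma was 0.477. The next steps rose by less: GPI by 0.54, and the phosphofructokinase subunits PFKP, PFKM and PFKL by 0.43, 0.31 and 0.26 on the log2 scale. Several enzymes of the later steps also rose. The isomerase TPI1 went from 265 ± 25.3 to 426 ± 12.8 (adjusted p = 2.85e-05), the enolase ENO1 from 541 ± 82.8 to 946 ± 53.6 (adjusted p = 0.000157) and the pyruvate kinase PKM from 277 ± 15.1 to 424 ± 21.5 (adjusted p = 3.56e-05). PGK1, the first of the ATP-making kinases, rose by 0.61 on the log2 scale. LDHA, which turns pyruvate into lactate, measured 326, 310.0, 336 and 369 in RPMI/B27 and 559.6, 639, 596 and 640.0 in RPMI_glcM/B27 (log2 fold change 0.86 ± 0.08 SE, adjusted p = 1.73e-05). The heart isoform LDHB, which favours the opposite reaction, was at 476 ± 74.2 and 564 ± 68.4 (adjusted p = 0.152).

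The largest glycolytic change was that of ENO2, the neuronal enolase, at 54.7, 58.2, 30.0 and 73.4 against 112, 111, 105 and 111 (log2 fold change 1.07 ± 0.28 SE, adjusted p = 0.0215). Its standard error was the largest of the list, with RPMI/B27 replicate 3 lowest at 30.0. PFKFB4, a second maker of fructose 2,6-bisphosphate, and the aldolase ALDOC passed narrowly (adjusted p = 0.0476 and 0.0472), while PFKFB3 and GAPDH did not (adjusted p = 0.0796 and 0.0542). Without RPMI/B27 replicate 3 PFKFB3 passed (adjusted p = 0.00962), as it did in 3 of 19 alternatives in all. For GAPDH, RPMI/B27 replicate 3 lay at 2256, against 3189 to 3369 in the other 3. ALDOA, the main muscle aldolase, also rose (log2 fold change 0.82 ± 0.11 SE, adjusted p = 0.000333), but its level of 4.22 in RPMI/B27 was low for an enzyme of this pathway, and genes that overlap or have processed copies can lose reads in counting.

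Glycogen genes changed on both the building and the breaking side. PGM1, which links glucose 6-phosphate to glycogen, went from 61.5 ± 2.73 to 90.0 ± 2.64 (log2 fold change 0.54 ± 0.05 SE, adjusted p = 3.11e-05), and GYS1, the muscle glycogen synthase, from 57.3 ± 6.68 to 80.9 ± 6.15 (log2 fold change 0.49 ± 0.08 SE, adjusted p = 0.00147). PPP1R3C, the targeting subunit that activates the synthase, measured 45.9, 39.2, 37.0 and 45.4 against 62.7, 75.1, 66.3 and 64.2 (log2 fold change 0.67 ± 0.13 SE, adjusted p = 0.00394). The phosphorylase PYGL measured 40.1, 40.0, 38.7 and 40.1 against 63.5, 60.0, 60.3 and 59.3 (log2 fold change 0.60 ± 0.07 SE, adjusted p = 7.3e-05), with all 4 libraries of each group within a narrow range. Other members that passed were the muscle phosphorylase PYGM, which was higher, and PHKB, a regulatory subunit of phosphorylase kinase, which was lower. Of 18 genes, 6 were higher, 1 was lower and 11 did not pass. That is 38.9% called, against 12.3% over all genes, and the list median was 0.20.

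The side routes of glucose showed fewer calls. They were 25% of the tested pentose phosphate and polyol genes and 23.1% of the hexosamine genes, against 12.3% over all genes. In the pentose phosphate and polyol list RPE and PGD were higher by 0.30 and 0.24 (adjusted p = 0.0164 and 0.0441). The call for PGD was kept in 6 of 19 alternatives. AKR1B1, the aldose reductase that opens the polyol route, went from 22.5 ± 4.09 to 16.2 ± 2.13 (adjusted p = 0.0218), while 9 of the 12 list genes did not pass. None of the 12 was called by limma on TPM as deposited, with 2 at an unadjusted p under 0.05. In the hexosamine list UAP1L1 and RENBP were higher and PGM3, a step towards UDP-N-acetylglucosamine, went from 17.5 ± 1.35 to 13.2 ± 0.317 (adjusted p = 0.00139), while 10 of 13 did not pass. GFPT1, the entry enzyme of that route, was at 50.6 ± 5.20 and 43.1 ± 2.02 and missed the threshold (adjusted p = 0.0535). It passed in 3 of 19 alternatives, among them the fit without RPMI/B27 replicate 3 (adjusted p = 0.00728). On TPM as deposited its adjusted p by limma was 0.760. PGM3 was lowest in RPMI/B27 replicate 3 of its group, at 15.5 against 18.1 to 18.2.

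**Figure D3:**
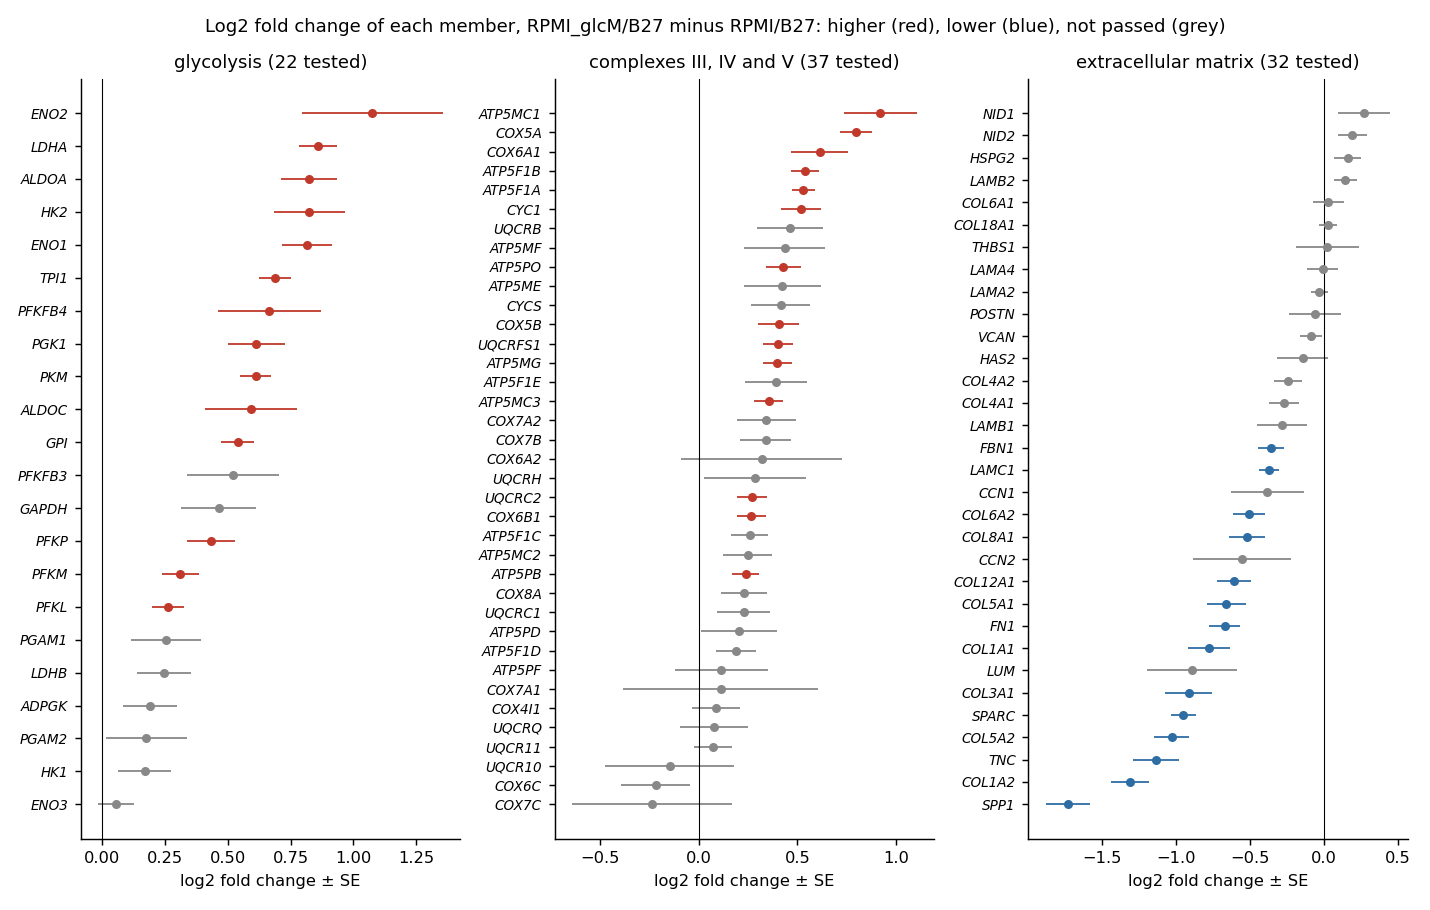
Log2 fold change with its standard error for every tested member of 3 lists (horizontal axes, RPMI_glcM/B27 minus RPMI/B27). All 22 glycolysis estimates are above 0, 14 of 37 genes of respiratory complexes III, IV and V are higher and none is lower, and in the extracellular matrix list 14 of 32 members are lower and none is higher.

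The mitochondrial entry of pyruvate and the citrate cycle were also higher at several steps. MPC1, a subunit of the mitochondrial pyruvate carrier, measured 28.3, 28.1, 33.1 and 33.4 in RPMI/B27 and 43.9, 47.9, 50.7 and 55.0 in RPMI_glcM/B27 (log2 fold change 0.67 ± 0.10 SE, adjusted p = 0.000751). PDP1, the phosphatase that switches pyruvate dehydrogenase on, went from 6.94 ± 0.187 to 10.6 ± 0.297 (adjusted p = 0.000452), and PDK1, a kinase that switches it off, from 93.3 ± 4.05 to 111 ± 2.99 (adjusted p = 0.00997). The 5 dehydrogenase subunits did not pass. PDK4, the kinase induced by fasting and fatty acids, was under the level filter, which was applied to TPM as deposited, and was not tested. In scaled TPM it measured 1.37, 0.917, 1.08 and 2.60 in RPMI/B27 and 0.394, 0.684, 0.445 and 0.774 in RPMI_glcM/B27, on 21 to 37 and 5 to 9 reads per library.

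Of 23 citrate cycle genes 9 were higher and 1 was lower, or 43.5% called against 12.3% over all genes. SDHA, SDHB and SDHD, subunits of succinate dehydrogenase, rose by 0.47, 0.49 and 0.37 on the log2 scale, while the fourth subunit did not pass. IDH3A, OGDH, SUCLG1, CS and FH were also higher. ME1, the cytosolic malic enzyme that yields NADPH, was the lower one, at 25.8, 23.6, 26.1 and 26.4 against 17.4, 14.7, 16.6 and 13.3 (log2 fold change -0.69 ± 0.08 SE, adjusted p = 0.000109). On TPM as deposited 1 of the 23 was higher and none lower, against 221 and 138 of all 15845 genes.

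The respiratory chain followed, with 8 of 35 complex I genes and 14 of 37 genes of complexes III, IV and V higher and none lower. These were 22.9% and 37.8% of the genes tested, against 6.29% higher over all genes. The medians were 0.17 and 0.32, against -0.01 over all genes. By complex, 3 of 10 genes of complex III (30%), 4 of 12 of complex IV (33.3%) and 7 of 15 of complex V (46.7%) were higher. COX5A of complex IV measured 60.1, 59.9, 61.2 and 67.2 against 99.8, 107, 103 and 126 (log2 fold change 0.80 ± 0.08 SE, adjusted p = 3.92e-05). The catalytic ATP synthase subunits ATP5F1A and ATP5F1B went from 107 ± 8.38 to 155 ± 2.97 and from 426 ± 42.4 to 617 ± 32.9 (adjusted p = 7.3e-05 and 0.000241). In complex I, the core subunit NDUFS3 went from 37.6 ± 6.66 to 58.7 ± 2.70 (adjusted p = 0.000806) and NDUFS1, which carries iron-sulfur clusters, from 146 ± 3.02 to 170.4 ± 3.33 (adjusted p = 0.00449). The accessory subunits NDUFB9 and NDUFA10 rose by 0.80 and 0.30. UQCRFS1, the iron-sulfur subunit of complex III, rose by 0.40 ± 0.07 SE (adjusted p = 0.00289). RNR1, which varied between libraries of both groups, was used as a covariate in another fit, in which 13 of the 35 and 21 of the 37 were higher. In that fit 922 of all 15845 genes were higher. Without scaling 4 and 7 were higher, against 221 of all 15845 genes. Mitochondrially encoded proteins were not analysed here.

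Proteins of the mitochondrial ribosome were higher for 12 of 70 genes (17.1%, against 6.29% over all genes), with none lower and a median of 0.15. With 1 library left out the median ran from 0.09 (without RPMI/B27 replicate 1) to 0.22 (without replicate 3), and the number higher from 9 to 17, with 1 lower without replicate 2. The small-subunit proteins MRPS5 and MRPS26 rose by 0.44 and 0.80, and the large-subunit proteins MRPL4 and MRPL34 by 0.68 and 0.70. Without scaling the number was 7. Proteins of the cytosolic ribosome passed in 6 of 71 cases, all higher, with a median of -0.04. That is 8.45%, near the 6.29% higher over all genes. The 4 with the smallest adjusted p, RPL39, RPL9, RPS28 and RPL37A, rose by 0.77, 0.43, 0.47 and 0.34. These genes have many processed copies that can share reads.

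Among 17 metabolic regulators 4, all of them transcriptional regulators of mitochondrial and fatty acid genes, were higher. That is 23.5%, against 6.29% higher over all genes. PPARGC1A, the coactivator PGC-1 alpha that drives mitochondrial biogenesis, measured 32.7, 27.7, 36.2 and 31.4 in RPMI/B27 and 56.4, 65.1, 57.5 and 55.1 in RPMI_glcM/B27 (log2 fold change 0.85 ± 0.09 SE, adjusted p = 7.52e-05). Its partner ESRRA, the nuclear receptor ERR alpha, measured 7.64, 6.81, 8.29 and 8.37 against 13.5, 15.8, 14.0 and 15.3 (log2 fold change 0.84 ± 0.09 SE, adjusted p = 5.82e-05), and ESRRG and PPARA rose by 0.36 and 0.56 (adjusted p = 0.00741 and 0.000447). In each case the 4 lowered-glucose libraries lay above the 4 others. The other 13 genes of that list did not pass, among them all 7 genes for the energy sensor AMPK and its upstream kinase.

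Fatty acid oxidation did not move as a whole: 3 of 27 genes were higher, 1 was lower and the median was 0.03. That is 14.8% called, near the 12.3% over all genes. CPT1A, the gatekeeper of fatty acid entry into mitochondria, measured 5.01, 4.89, 4.49 and 4.39 against 8.68, 6.93, 7.40 and 8.63 (log2 fold change 0.64 ± 0.10 SE, adjusted p = 0.00139). FABP3, the heart fatty acid binding protein, went from 243 ± 40.3 to 371 ± 29.3 (adjusted p = 0.00181), ETFDH, which passes electrons from beta oxidation to the chain, from 38.9 ± 3.67 to 49.0 ± 5.37 (adjusted p = 0.0292), and DECR1, needed for unsaturated fatty acids, from 31.3 ± 2.82 to 23.1 ± 1.00 (adjusted p = 0.00148). Of 15 genes of beta oxidation proper, 13 did not pass (13.3% called).

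Creatine kinases, which buffer ATP in muscle, were among the clearest changes at high abundance. CKM, the muscle form, measured 118, 97.8, 152 and 129 against 297, 308, 320.4 and 298 (log2 fold change 1.31 ± 0.12 SE, adjusted p = 1.71e-05), and CKB, the brain form, 43.9, 40.4, 50.7 and 34.4 against 96.4, 76.6, 82.0 and 88.3 (log2 fold change 1.01 ± 0.10 SE, adjusted p = 3.56e-05). The creatine transporter SLC6A8 went from 12.5 ± 2.60 to 19.0 ± 1.54 (adjusted p = 0.00340), and GATM, the first enzyme of creatine synthesis, from 22.9 ± 2.27 to 18.1 ± 1.59 (adjusted p = 0.0374). For CKM and CKB the groups did not overlap. Of 8 genes, 3 were higher and 1 lower, or 50% called against 12.3% over all genes.

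In the list for insulin, FOXO and mTOR signalling, IRS2 went from 2.20, 1.91, 2.55 and 2.76 to 4.99, 6.68, 3.85 and 4.22 (log2 fold change 0.81 ± 0.16 SE, adjusted p = 0.00533). It encodes an adaptor of the insulin receptor. The related adaptor IRS1 rose by 0.24 (adjusted p = 0.0353), a call kept in 8 of 19 alternatives. KLF15, a regulator of glucose and amino acid use, rose by 0.60 (adjusted p = 0.0232), kept in 12 of 18. SESN3, a nutrient-sensitive brake on mTOR, fell from 26.3 ± 3.01 to 16.8 ± 2.89 (adjusted p = 0.00396), and PIK3IP1, an inhibitor of PI3 kinase, from 11.8, 10.2, 4.77 and 7.68 to 3.73, 2.44, 3.63 and 3.26 (adjusted p = 0.00712). The other 13 of 18 genes did not pass, so 27.8% were called, against 12.3% over all genes. On TPM as deposited 1 of these 18 genes was higher and none lower.

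Targets of the hypoxia response were higher in 11 of 19 cases, besides 1 of 6 oxygen sensors, with none lower in either group. Of the 25, 48% were called, against 12.3% over all genes, and the median was 0.37. BNIP3, a mitochondrial receptor for autophagy, measured 704, 688, 712 and 746 against 1289, 1394, 1193 and 1349 (log2 fold change 0.87 ± 0.09 SE, adjusted p = 3.56e-05). VEGFA, the angiogenic growth factor, went from 198 ± 21.9 to 275 ± 12.4 (adjusted p = 0.0139). ERO1A, an oxidase of the endoplasmic reticulum, and P4HA2, a collagen hydroxylase, rose by 0.77 and 0.59. Of the 12 that passed, 5 (SLC2A1, HK2, PFKFB4, PGK1 and LDHA) are also glucose transport or glycolysis genes and are counted in both lists. HIF1A was at 144 ± 15.0 and 117 ± 3.45 (adjusted p = 0.0533). On TPM as deposited 6 of the 25 were higher.

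Genes of the amino acid response were higher in 5 of 18 cases (27.8%), against 6.29% over all genes. STC2, a secreted stanniocalcin, measured 7.24, 7.03, 8.81 and 6.78 against 12.9, 16.9, 18.3 and 16.3 (log2 fold change 1.01 ± 0.16 SE, adjusted p = 0.00127). DDIT3, a stress transcription factor, went from 12.8 ± 1.55 to 22.9 ± 5.80 (adjusted p = 0.00888). SLC38A2, a transporter of small neutral amino acids, rose by 0.32, and MTHFD2 and SHMT2, enzymes of mitochondrial folate metabolism, passed narrowly (adjusted p = 0.0469 and 0.0449). On TPM as deposited 1 of the 18 passed. ATF4, the factor at the head of the response, was at 15.3 ± 2.65 and 17.1 ± 2.07 (adjusted p = 0.460). Among 21 genes of protein folding stress (4.76% called against 12.3% over all genes), HSPD1 was higher (0.31, adjusted p = 0.0300) and 20 did not pass. In the antioxidant list SOD2, TXN2, PRDX2 and GPX4 were higher, by 0.39, 0.29, 0.30 and 0.28, and NFE2L2 and SOD1 fell by 0.36 and 0.24. NFE2L2 is the transcription factor that drives many antioxidant genes. The other 15 of 21 did not pass, so 28.6% were called, against 12.3% over all genes. On TPM as deposited limma called none of the 21, with 7 at an unadjusted p under 0.05. TXN2, GPX4 and SOD1 passed in 8, 8 and 6 of the 19 alternatives.

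In lipid synthesis SREBF1, the transcription factor of fatty acid synthesis, measured 8.85, 8.72, 4.96 and 8.32 against 13.0, 14.7, 12.9 and 15.8 (log2 fold change 0.82 ± 0.15 SE, adjusted p = 0.00295). The sterol enzymes SC5D and FDFT1 were lower, at 94.7 ± 9.98 against 64.3 ± 4.89 and 43.5 ± 1.37 against 32.6 ± 2.27 (adjusted p = 0.000603 and 0.00965), as was the elongase ELOVL5 (adjusted p = 0.00347). In all, 3 of 32 were higher, 5 lower and 24 did not pass, or 25% called against 12.3% over all genes. On TPM as deposited limma called none of them, and 8 had an unadjusted p under 0.05.

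**Figure D4:**
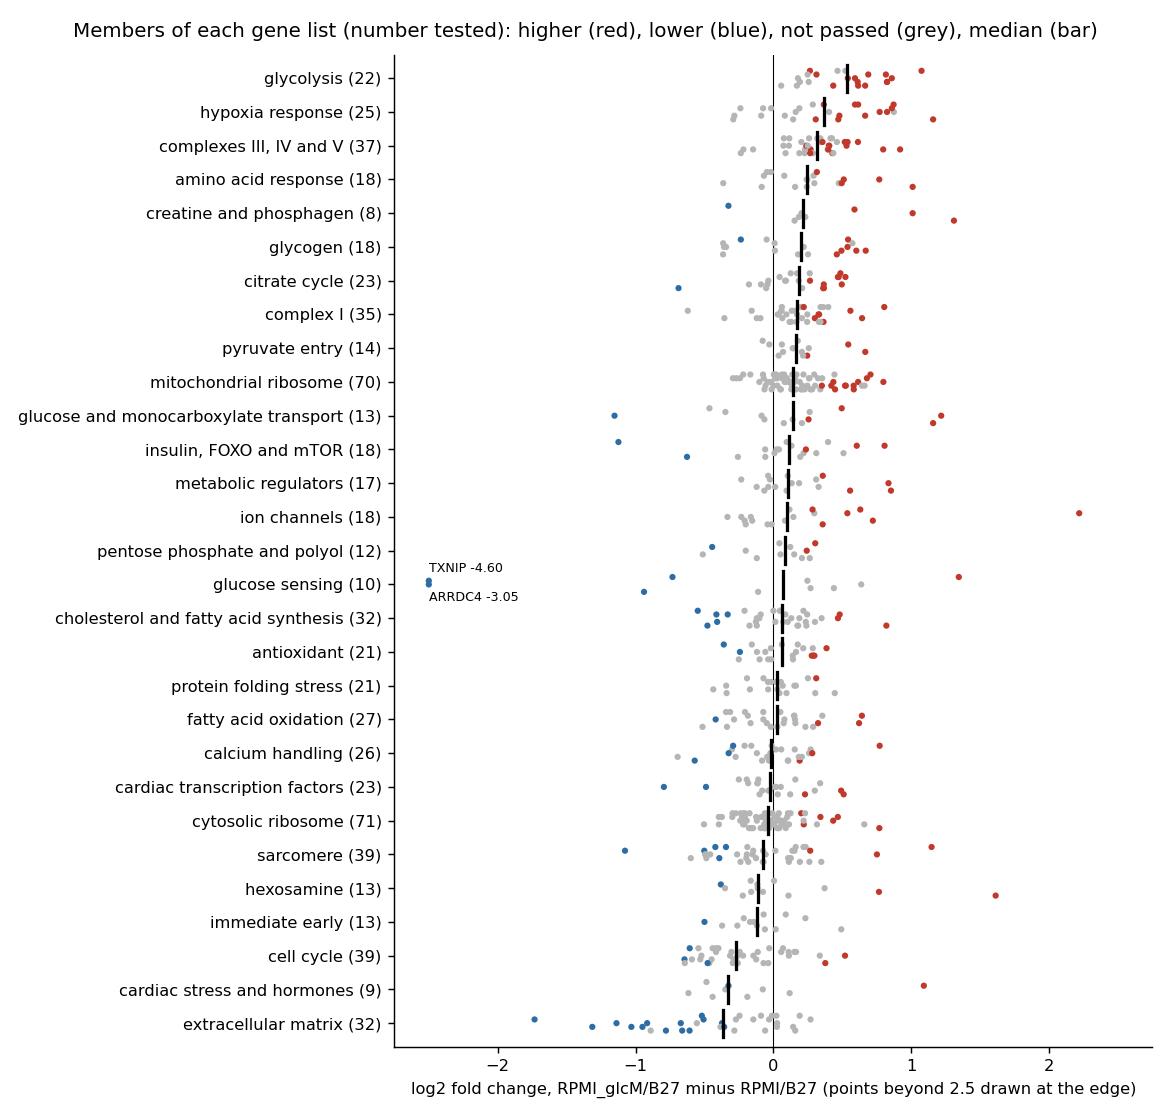
Log2 fold change of every tested member of 29 gene lists (horizontal axis, RPMI_glcM/B27 minus RPMI/B27; number tested in brackets), ordered by the list's median (bar). Glycolysis has the highest median, 0.53, and extracellular matrix the lowest, -0.36 (-0.21 without RPMI/B27 replicate 3, where cell cycle is lower at -0.26), while cytosolic ribosome, calcium handling and fatty acid oxidation lie near 0.

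Contractile genes gave a mixed picture. TNNI3, the adult cardiac troponin I, measured 448, 378, 461 and 435 in RPMI/B27 and 1012, 862, 869.8 and 1083 in RPMI_glcM/B27, a ratio of 2.22 (log2 fold change 1.15 ± 0.09 SE, adjusted p = 1.34e-05). The Day 16 cells had 119 to 146 and the HPLM/B27 cells 1371 to 1542. The fetal isoform TNNI1 was at 597 ± 16.4 and 657 ± 20.2 and did not pass (adjusted p = 0.164). MYL2, the ventricular regulatory light chain, moved the other way, at 507, 460.2, 569 and 599 against 361, 350.0, 390.0 and 400.4 (log2 fold change -0.50 ± 0.14 SE, adjusted p = 0.0317), with no overlap, against 28.9 to 43.0 at Day 16 and 523 to 839.8 in HPLM/B27. The call for MYL2 was lost on TPM as deposited (adjusted p = 0.151) and without any of 6 single libraries. Its atrial counterpart MYL7 was at 3962 ± 721 and 4233 ± 462 (adjusted p = 0.716). The myosin heavy chains MYH7 and MYH6 did not pass (adjusted p = 0.621 and 0.460), with MYH6 at 1437 in RPMI/B27 replicate 3 against 492 to 806 in the other 3. Without that library the MYH6 estimate went from 0.35 to 0.65 (adjusted p = 0.0613).

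Ratios of the paired isoforms within each library, which need no scaling factor, were compared by a two-sided exact permutation test, whose smallest possible p with 4 against 4 is 0.0286. The ratio of TNNI3 to TNNI1 was 0.775, 0.638, 0.746 and 0.724 in RPMI/B27 and 1.53, 1.32, 1.28 and 1.71 in RPMI_glcM/B27, a difference of 1.01 on the log2 scale (exact p = 0.0286, 0.0429 adjusted over the 3 ratios). The ratio of MYL2 to MYL7 was 0.143, 0.145, 0.122 and 0.134 against 0.101, 0.0799, 0.0841 and 0.0921, a difference of -0.61 (exact p = 0.0286, 0.0429 adjusted). So troponin I lay further towards its adult isoform with lowered glucose, and the light chain further from its ventricular isoform. The ratio of MYH7 to MYH6 was 3.99, 4.00, 1.85 and 3.80 against 2.46, 3.05, 2.93 and 2.67, with overlap (difference -0.23, exact p = 0.514). RPMI/B27 replicate 3 was the low value, and without it the groups did not overlap and the difference was -0.50 (exact p = 0.0571, the smallest 3 against 4 allows). The HPLM/B27 libraries lay at 2.24 to 2.94, 0.150 to 0.205 and 3.82 to 7.18 for the 3 ratios in the same order.

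Over the 39 sarcomere genes 3 were higher, 5 lower and 31 did not pass, or 20.5% called against 12.3% over all genes. Without RPMI/B27 replicate 3 the counts were 5 higher and 3 lower. The falls lay mainly in the Z-disc, where 4 of 13 genes (30.8%) were lower, against 6.03% over all genes, and none higher. PDLIM3, an actinin-binding Z-disc protein, measured 72.6, 80.0, 91.4 and 65.7 against 41.6, 35.5, 32.5 and 34.7 (log2 fold change -1.08 ± 0.13 SE, adjusted p = 0.00019). LDB3, ACTN2 and PDLIM5 fell by 0.42, 0.39 and 0.34 on the log2 scale. MYH7B, a slow myosin whose intron carries a microRNA, rose by 0.75 (adjusted p = 0.00699). The sarcomeric actin genes ACTC1 and ACTA1, high in the library that stood apart, did not pass (adjusted p = 0.836 and 0.870), and the estimate for ACTA1 went from -0.19 to 0.48 without that library.

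Of 26 calcium handling genes 3 were higher and 3 lower, or 23.1% called against 12.3% over all genes. GEM, a small GTPase that damps L-type calcium channels, measured 10.9, 8.93, 13.5 and 11.7 against 20.9, 19.4, 17.9 and 20.8 (log2 fold change 0.77 ± 0.14 SE, adjusted p = 0.00270). RYR2, the calcium release channel, rose by 0.19 (adjusted p = 0.0370), a call kept in 7 of 19 alternatives. CASQ1, CAMK2D and ATP2B4 fell by 0.57, 0.29 and 0.32 (adjusted p = 0.0142, 0.0208 and 0.0176). The other 20 did not pass, among them ATP2A2 (0.21 ± 0.07 SE, adjusted p = 0.0873). ATP2A2 passed in 2 of 19 alternatives, among them the fit without RPMI/B27 replicate 3 (adjusted p = 0.0188). On TPM as deposited 1 of the 26 genes was higher and none lower. Of 18 ion channel and pump genes 6 (33.3%, against 6.29% over all genes) were higher and none was lower, and with 1 library left out 3 or 4 were higher. They included GJA1, the gap junction protein connexin 43, at 63.9, 54.1, 46.1 and 59.8 against 85.2, 109, 93.9 and 82.9 (log2 fold change 0.72 ± 0.12 SE, adjusted p = 0.00139). The pacemaker channel HCN2 rose by 0.63 (adjusted p = 0.0354), a call kept in 7 of 18 alternatives. Without scaling 1 of the 18 channel and pump genes was higher.

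Among cardiac stress genes NMRK2, a kinase of NAD synthesis, went from 2.65 ± 1.06 to 6.58 ± 0.748 (adjusted p = 0.00895), and CORIN, the protease that activates natriuretic peptides, from 65.3 ± 5.26 to 52.1 ± 6.05 (adjusted p = 0.0349). The natriuretic peptide genes NPPA and NPPB did not pass (adjusted p = 0.258 and 0.543), and the NPPA estimate went from -0.44 to -0.13 without RPMI/B27 replicate 3. NPPB measured 188, 135, 878 and 196 against 175, 194, 180.4 and 128, and its estimate of -0.62 rested on the single high library, since it was -0.03 without RPMI/B27 replicate 3. Among 23 cardiac transcription factors HEY2 and IRX4, both of the ventricular programme, rose by 0.51 and 0.49 (adjusted p = 0.0211 and 0.0236), and PRRX1 and TBX18, both of mesenchymal and epicardial lineages, went from 19.0 ± 1.54 to 10.8 ± 2.80 and from 18.7 ± 3.74 to 12.9 ± 1.04 (adjusted p = 0.00302 and 0.0184). Of the 23, 21.7% were called, against 12.3% over all genes. On TPM as deposited limma called none of the 23, with 3 at an unadjusted p under 0.05. Of 39 cell cycle genes 2 were higher and 3 lower, or 12.8% against 12.3% over all genes, with a median of -0.27, and with only the 2 groups in the fit 9 were lower. CDK4 was the higher one with the smallest adjusted p (0.52, adjusted p = 0.000473) and CDKN1A, the inhibitor p21, the lower one (131, 116, 135 and 119.6 against 89.5, 83.1, 71.8 and 84.1, adjusted p = 0.000353). Of 13 immediate early genes (7.69% called against 12.3% over all genes) IER2 was lower (-0.50, adjusted p = 0.0423) and 12 did not pass. That call was lost without any 1 of the 8 libraries (adjusted p = 0.0975 without RPMI/B27 replicate 3, where it was highest).

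Extracellular matrix genes were the list with the most falls: 14 of 32 (43.8%) were lower, against 6.03% over all genes, and none was higher. The list median was -0.36. Without RPMI/B27 replicate 3 the median was -0.21, with 15 lower and 1 higher. COL1A2, a chain of type I collagen, measured 38.3, 36.4, 32.9 and 43.9 in RPMI/B27 and 16.5, 15.3, 13.1 and 13.6 in RPMI_glcM/B27 (log2 fold change -1.31 ± 0.13 SE, adjusted p = 3.56e-05), and SPARC, a collagen-binding matricellular protein, 87.0, 87.9, 75.1 and 83.1 against 45.8, 41.6, 39.2 and 43.9 (log2 fold change -0.95 ± 0.09 SE, adjusted p = 1.73e-05). COL5A2 went from 34.8 ± 4.82 to 16.4 ± 1.33 (adjusted p = 0.000122). Collagens made up 8 of the 14, and 14 of the 20 other matrix genes did not pass. Without scaling 5 of the 32 were lower. Fibroblast markers moved with this list. Many of the 10 fibroblast markers are themselves matrix genes, namely the collagens COL1A1, COL1A2 and COL3A1 and also DCN, LUM and POSTN. Their summed level, over all 10, was 253, 257, 192 and 265 in RPMI/B27 and 155, 146, 139 and 135 in RPMI_glcM/B27. PDGFRA, the receptor that defines these cells, measured 44.7, 46.7, 32.4 and 43.0 against 23.1, 20.2, 26.0 and 21.2 (log2 fold change -0.85 ± 0.14 SE, adjusted p = 0.00183). Of 7 tested fibroblast markers 4 were lower (57.1%, against 6.03% over all genes), namely the collagens COL1A1, COL1A2 and COL3A1, and PDGFRA. On TPM as deposited 1 of the 7 was lower. In bulk RNA fewer cells of a type and less RNA per cell cannot be told apart.

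Hepatic genes were a further block of lower genes. Of 9 tested markers of hepatic endoderm 7 were lower (77.8%, against 6.03% over all genes) and none higher, with a median of -1.42. ALB, the gene of albumin, measured 269, 266, 228 and 226 in RPMI/B27 and 93.7, 57.5, 43.2 and 125 in RPMI_glcM/B27 (log2 fold change -1.73 ± 0.37 SE, adjusted p = 0.00749), and AFP, alpha-fetoprotein, 138, 150.3, 144 and 143 against 69.7, 48.9, 33.0 and 71.1 (log2 fold change -1.42 ± 0.31 SE, adjusted p = 0.00847). The apolipoproteins APOA1, APOA2 and APOB and the fibrinogen chains FGA and FGB fell by 1.13, 1.68, 1.07, 1.55 and 1.49 on the log2 scale. The summed level of the 12 markers was 492, 491, 478 and 453 against 204, 134, 95.9 and 239, so the groups lay apart, and was 355 to 699 at Day 16 and 79.2 to 209 in HPLM/B27. ALB alone ran from 10.7 to 26.0 at Day 16. SOX17, which marks early endoderm, was at 0 in all 8 libraries. Without RPMI/B27 replicates 3 and 4 the number of lower markers was 4. What part the makeup of the cultures has in any of these changes was not tested.

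**Figure D5:**
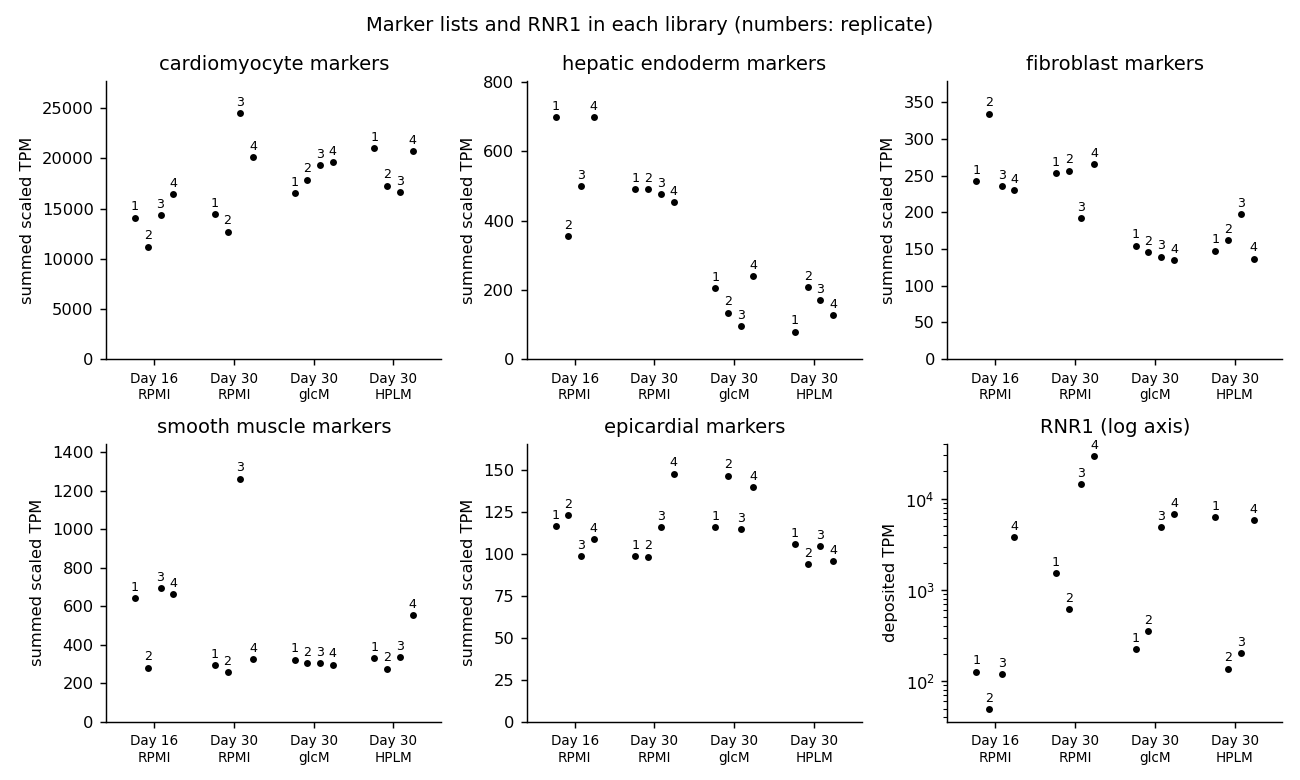
Summed scaled TPM of 5 marker lists and the deposited TPM of RNR1 (log axis) in each library, with the replicate number beside each point. The hepatic and fibroblast sums of the 4 RPMI_glcM/B27 libraries lie below those of the 4 RPMI/B27 libraries, RPMI/B27 replicate 3 is alone at 1263 in the smooth muscle panel, and RNR1 runs from 619 to 29276 within the RPMI/B27 group.

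The summed levels of epicardial and smooth muscle markers overlapped between the groups. Epicardial markers summed to 98.4 to 148 in RPMI/B27 and 115 to 147 in RPMI_glcM/B27. TBX18, which was lower, was the member that passed of 4 tested (25%, against 6.03% lower over all genes). Of 5 smooth muscle markers 1 was lower (20%, against 6.03% over all genes). This was LMOD1, a leiomodin, at 25.1, 27.5, 119.7 and 40.6 against 17.5, 18.8, 15.6 and 16.0 (log2 fold change -1.29 ± 0.38 SE, adjusted p = 0.0407). RPMI/B27 replicate 3 was the highest by far, and without it the change was -0.81 (adjusted p = 0.0499).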

How the data were processed

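Total RNA of hPSC-CMs was sequenced in 16 libraries, 4 per group, and groups were taken from the sample labels. The authors aligned reads with STAR 2.5.3a to hg38 with decoy sequences, counted them per gene with featureCounts 2.0.3 and deposited TPM for 43388 gene symbols, which sum to 1000000 per library. R 4.1.3 is named in the submitters' processing notes, and the study's own comparisons used DESeq2. The gene annotation, the gene lengths, the strand setting and the tool that made the TPM are not given in the sources used here, so genes that overlap or have near-identical copies can share reads. Because RNR2 and RN7SK take most of each total, TPM of other genes move with them.

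Here each library was divided by a median-of-ratios factor over genes above 0 in all 16 that reached 1 TPM on average in the 8 compared. limma 3.58.1 in R 4.3.3 (lmFit, eBayes with a trend) was run on log2(scaled TPM + 1) for the 16 libraries, and p-values of the contrast were adjusted by the Benjamini-Hochberg method with a threshold of 0.05. The fit was tested on simulated data. Because TPM of 1 gene in different libraries stand to each other as whole read numbers do, reads could be recovered for all 31047 genes above 0. They may be too low by a common divisor, and give the depth and a limma-voom alternative. Other alternatives were TPM as deposited, totals without the dominant RNAs, other filters and pseudocount, only the 2 groups, a replicate block, RNR1 as a covariate, and each library left out. The fit without RPMI/B27 replicates 3 and 4 and the CACGAG motif were chosen after seeing the data.

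The members and gene lists were chosen with earlier results of these data known. Genes were named by a rule: the 12 with the largest rise and fall, up to 4 per list by adjusted p, and a fixed set of glucose, contractile and RNA genes. Further members of a list, and genes whose level differed in 1 library, were named after their values were seen. Some genes that the rule takes are not reported here. Promoters were read from RefSeq (GRCh38.p14) and gene positions from GENCODE 44; 10679 of the 15845 tested genes matched a promoter by symbol.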

Additional observations from a re-analysis of the deposited data

Results flagged for a closer look

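In 354 sets of 4 values, 1 for each named gene and Day 30 RPMI group, 27 held a library whose gap to the nearest other was above Dixon's 95% critical value; chance alone flags about 1 in 20 such sets. Some genes were named because 1 library differed, so the number is not a test against that share. Of the 27, 17 lay in RPMI/B27 replicate 3. There NPPB was 878, ACTC1 6087, ACTA1 593, LMOD1 119.7, TNFRSF11B 16.1 and STAT4 14.3, each well above the other 3 libraries. SLC2A1 was 39.3 (others 25.4 to 26.0), SUCLG1 146 (116 to 121), SOD1 407 (335 to 344), MRPS5 63.9 (52.0 to 53.3), FGB 16.0 (8.58 to 9.22) and IER2 13.9 (10.3 to 10.9). On the low side GAPDH was 2256, COL1A1 32.6 (44.8 to 47.0), PGM3 15.5, PYGL 38.7 (40.0 to 40.1) and SREBF1 4.96 (8.32 to 8.85).

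In RPMI/B27 replicate 4, ENO1 was 665 (494 to 504 in the others), PFKL 27.8 (25.6 to 25.9) and NMRK2 4.22 (1.93 to 2.27). In RPMI_glcM/B27, MYH7 was low in replicate 1 at 2420 (2782 to 2795), while MLXIPL was seen there alone, at 0.115. MLXIP was 9.15 in replicate 2, ENO2 105 and MRPL4 15.6 in replicate 3, and PDK1 106 and PDLIM5 179 in replicate 4.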

How the results depend on the processing

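The 155 named genes that passed the test kept their direction in each alternative they entered (19 for 139 genes and 18 for 16), and 61 passed in every one, while 66 passed on TPM as deposited and 120 with only the 2 groups in the fit. The number of genes called depended on the scaling: 359 passed (221 higher, 138 lower) on TPM as deposited, and 1190 (661 higher, 529 lower) with totals without mitochondrial and ribosomal RNA and RN7SK. With only the 2 groups in the fit 1134 passed (586 higher, 548 lower), on fewer residual degrees of freedom. The other filters, the pseudocount, the RNR1 covariate and limma-voom gave 1576 to 2032 calls. Leaving out 1 library gave 1338 to 2151 calls (670 to 1114 higher, 649 to 1037 lower), the most without RPMI/B27 replicate 3, and leaving out RPMI/B27 replicates 3 and 4 gave 1500, of which 1098 were among the 1951.

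Deviations of same-numbered wells of the media were at most weakly correlated (0.06, -0.00, 0.01 and 0.08 over genes). Those of differently numbered wells ran from -0.10 to 0.05. A replicate block gave 1936 calls (968 higher, 968 lower), 1730 of them shared. With 1 library left out the isoform ratios ran from -0.67 to -0.56 for MYL2 to MYL7 and from 0.93 to 1.07 for TNNI3 to TNNI1, and the exact p of both was 0.0571, the smallest such a design allows. The sign changed for 3 genes that had not passed the test. NPPB was at 0.073 without RPMI/B27 replicates 3 and 4. With 1 library left out ACTA1 ran from -0.44 to 0.48, the top without RPMI/B27 replicate 3 (0.51 without both), and ACTC1 from -0.053 (without RPMI/B27 replicate 2) to 0.59. Of tested genes under 10 reads 2.97% were called, against 12.3% of all, so depth limits what can be said of them.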
